A study of Mus musculus with 24 samples.

Results

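Myelin genes of the mature oligodendrocyte (Mbp, Mog, Mag, Mobp, Cnp, Cldn11, Opalin, Mal and Ugt8a) were followed in the hippocampus of mice that develop epilepsy after deletion of Tsc1. They were chosen by name as genes that mature oligodendrocytes express, with earlier results of these data known. They are 9 of the 55385 gene identifiers counted in each library. Their levels are correlated with one another, so the shares of all genes set beside their calls below are a description and not a test. RNA of the hippocampus was sequenced from 24 mice, 4 in each of 6 groups, named by a letter from A to D within a group. All mice carried 2 floxed Tsc1 alleles (Tsc1f/f), were 16 to 22 weeks old and received 4 injections of tamoxifen. The control mice (Tsc1-Cre-) had no Cre transgene and were taken on day 8 after the tamoxifen injections began. The Tsc1-Cre+ mice carried Camk2a-CreERT2 and were taken on day 4, day 6, day 8 or day 13. The last group (Tsc1-Cre+-Rap 4) was Tsc1-Cre+ and received 10 mg/kg of rapamycin, an inhibitor of mTORC1, from day 4 until it was taken on day 13. The Camk2a promoter drives the Cre in excitatory neurons, so that Tsc1 is deleted in neurons and not, by design, in the oligodendrocytes that transcribe the genes described here. Both male and female mice were used, and the labels do not give the sex of each mouse. The mice of days 4, 6 and 13 have no Cre-negative group of their own day, and all 5 comparisons with control share the same 4 control mice. No Cre-negative mice received rapamycin and no group is labelled as given a vehicle. In rapamycin against control, Cre, day and drug therefore cannot be told apart.

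Myelin is the membrane that oligodendrocytes wrap around axons, and its proteins and lipids are made by the mature cell after it has left the precursor state. MBP holds the cytoplasmic faces of compact myelin together, MOBP is another small basic protein of compact myelin, and MAL is a proteolipid of lipid rafts that takes part in the sorting of myelin proteins. CNP, a phosphodiesterase, lies in the cytoplasmic channels of non-compact myelin, MAG is an adhesion molecule on the side of the sheath that faces the axon, and CLDN11 forms the tight junctions between its layers. MOG lies on the outermost surface of the sheath, OPALIN (TMEM10) is a membrane glycoprotein of the mature cell, and UGT8A makes galactosylceramide, the main glycolipid of myelin. The hippocampus has less myelin than the neighbouring white matter, and in bulk tissue fewer oligodendrocytes and less RNA in each oligodendrocyte cannot be told apart.

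All 9 genes are protein-coding in the GRCm38 annotation, and they lie on 8 chromosomes (Cldn11 and Ugt8a share chromosome 3). Mobp (chr9:120149707-120181484, plus strand) shares exonic positions with Gm38642 on the same strand, which was counted at a mean of 1.28 ± 0.501 CPM (SD, n = 4) in controls. Cnp (chr11:100574904-100591729, plus strand) shares exonic positions with Dnajc7 on the opposite strand, which was counted at 91.8 ± 1.38 CPM in controls. The strand and overlap settings of the counting are not given in the sources used here. Whether reads over these shared positions were counted for Cnp, for Dnajc7 or for neither is therefore not known.

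The sequences upstream of 4 of the genes are shown because the levels of Mobp and Ugt8a parted from each other between groups, the second most variable ratio of the 36 pairs, while those of Cnp and Mog kept the most constant one. The sequences are from RefSeq (GRCm38.p6), are written 5′ to 3′ on the strand of the gene, begin 250 bases before the RefSeq start and end before the first base of the annotated gene. Capitals mark a core of SOX factors (ACAAAG or ACAATG) or of MYRF (CTGGCAC), factors of oligodendrocyte differentiation, on either strand.
Mobp (chr9:120149492-120149706, plus strand): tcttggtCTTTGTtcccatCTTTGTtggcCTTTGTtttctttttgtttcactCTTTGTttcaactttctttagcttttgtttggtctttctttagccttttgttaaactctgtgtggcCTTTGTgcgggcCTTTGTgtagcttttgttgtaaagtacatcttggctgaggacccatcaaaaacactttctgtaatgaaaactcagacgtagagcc
Ugt8a (chr3:125938653-125938902, minus strand): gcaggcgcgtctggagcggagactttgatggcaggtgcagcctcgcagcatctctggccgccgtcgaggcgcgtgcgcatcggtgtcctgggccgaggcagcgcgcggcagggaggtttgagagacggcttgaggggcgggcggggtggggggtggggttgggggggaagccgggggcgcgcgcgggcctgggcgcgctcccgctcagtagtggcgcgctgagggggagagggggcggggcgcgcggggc
Cnp (chr11:100574689-100574903, plus strand): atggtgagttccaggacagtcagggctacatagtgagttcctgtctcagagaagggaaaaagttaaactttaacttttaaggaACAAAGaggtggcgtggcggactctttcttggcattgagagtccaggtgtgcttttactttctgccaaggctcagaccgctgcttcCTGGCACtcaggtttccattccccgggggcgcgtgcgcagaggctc
Mog (chr17:37023399-37023648, minus strand): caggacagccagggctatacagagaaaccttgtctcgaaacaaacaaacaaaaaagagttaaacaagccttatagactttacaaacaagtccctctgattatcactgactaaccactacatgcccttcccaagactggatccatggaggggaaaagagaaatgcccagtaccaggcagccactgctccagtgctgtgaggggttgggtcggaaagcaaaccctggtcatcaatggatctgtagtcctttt
The Mobp window held 6 SOX cores, the Cnp window 1 SOX and 1 MYRF core, and those of Ugt8a and Mog neither. Mbp was left out of the counts of motifs, so whether its upstream sequence holds a core is not known. Of the other 8 members, 4 held a SOX core (Mag, Mobp, Cnp and Opalin), against 25.5% of the windows of 27025 genes. The MYRF core was in 2 of the 8 (Mag and Cnp), against 4.14%. The core bound by OLIG2 (CAGCTG) was in none of the 8 and in 12.8% of all windows. No match of a motif overlapped a match of another in these windows. The upstream sequence shown for Ugt8a was 76.8% G and C and that for Mobp 39.1%. These matches are descriptions of the letters, and no binding was measured.

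Total counts per library ranged from 28208561 to 126435936, and both ends of this range were among the day 13 mice and the rapamycin mice. The smallest count of a member in any library was 323 for Opalin, 691 for Mog and 1413 for Ugt8a, and 32946 for Mbp, the most abundant. Tsc1 was at 103 to 109 CPM (read counts scaled to a common library total, with TMM factors) in the control mice and at or below 81.7 CPM in every Tsc1-Cre+ mouse. The remaining Tsc1 counts include cells without Cre. Control mice and day 8 mice carry animal numbers of the same series and the other groups do not, so for the other comparisons the group and the series cannot be told apart.

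Per kilobase of exon, the members formed a wide order in the control hippocampus. Mbp stood at 191 ± 34.3 CPM per kb (SD, n = 4). Mobp followed at 116 ± 26.1, Mal at 78.3 ± 18.5 and Cnp at 69.6, then Cldn11 at 53.0, Mag at 38.7, Mog at 25.4 and Ugt8a at 18.7. Opalin was the lowest of the 9 at 8.39 CPM per kb. Mature oligodendrocyte markers were therefore present in every library, and none of the 9 was at 0 in any mouse.

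Control mice differed among themselves in all 9 genes together. Control mouse A was the lowest of the 4 controls for every member: the 9 genes summed to 2426 CPM in it and to 3738, 3153 and 3858 CPM in mice B, C and D. Its summed level of 10 excitatory neuron genes was the highest of the controls, 6231 CPM against 5259 to 5528. This mouse lay within the range of the Tsc1-Cre+ groups for most members, so that few groups separate from the controls without overlap, and its share in each comparison is given below by leaving it out.

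The plot of the members' levels by mouse shows the 24 values of each gene.

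**Figure D1:**
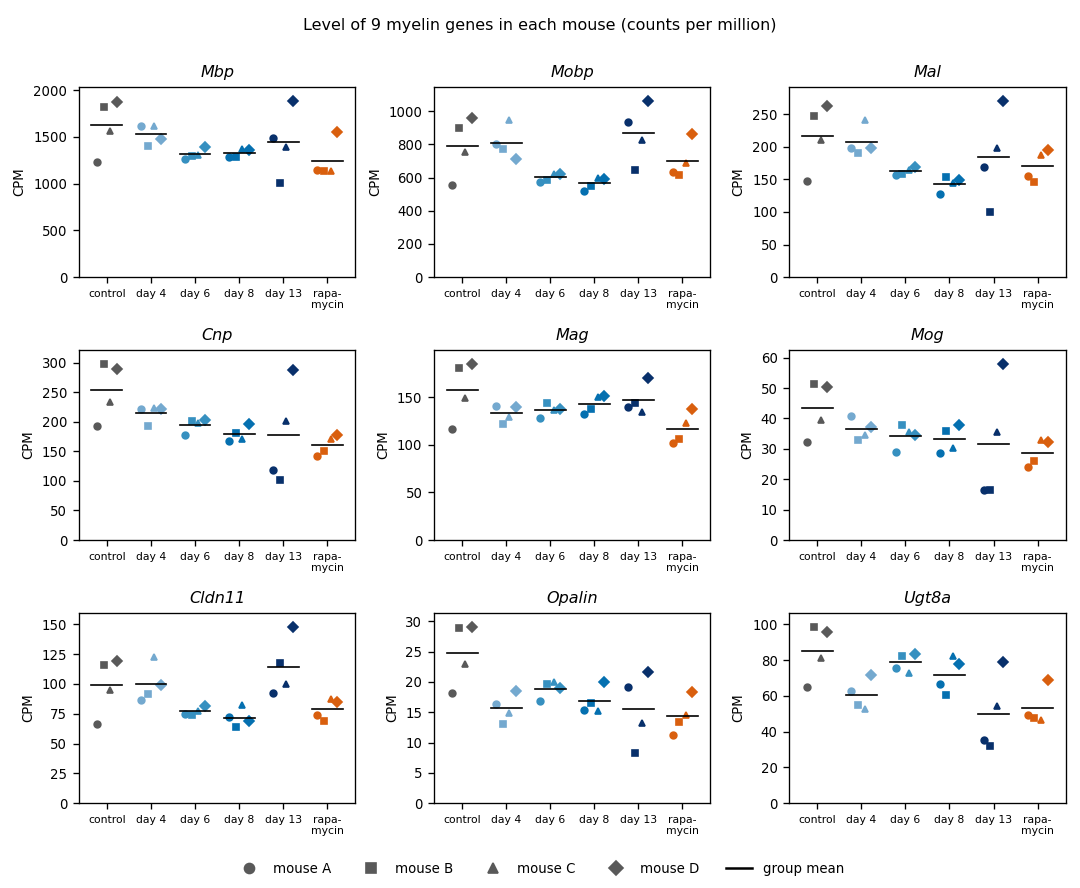
Levels in CPM (linear axis from 0) of the 9 genes in each of the 24 mice, by group. Symbols are mice A to D and the line is the group mean. Control mouse A (circle) is the lowest control in all 9 panels, and on day 13 mice A and B are low for Mog, Cnp and Ugt8a.

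Among the genes of compact myelin, Mbp was at 1235, 1819, 1565 and 1868 CPM in control mice A to D. It ranged from 1397 to 1613 CPM on day 4, from 1260 to 1393 on day 6, from 1283 to 1372 on day 8, from 1005 to 1887 on day 13 and from 1134 to 1551 under rapamycin. Every group overlapped the controls, day 4 lay above all of day 6 and day 8, and Mbp passed the test in no comparison. Mobp was at 555, 898, 756 and 958 CPM in controls. It was at 801, 774, 947 and 714 CPM on day 4, at 573, 587, 620 and 623 on day 6 and at 518, 551, 599 and 593 on day 8. On day 13 it was at 937, 645, 825 and 1064 CPM and under rapamycin at 633, 618, 686 and 860. All day 6 and day 8 mice were therefore below control mice B, C and D and close to control mouse A, and every day 13 mouse was above every day 8 mouse. Mal was at 147, 248, 211 and 263 CPM in controls and at 127, 153, 144 and 149 CPM on day 8. Its day 6 values, 157 to 169 CPM, lay above all of day 8. On day 13 Mal spread from 99.7 CPM in mouse B to 271 CPM in mouse D.

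In the non-compact parts of the sheath, Cnp was at 192, 298, 234 and 289 CPM in controls. It was at 221, 193, 224 and 221 CPM on day 4, at 177, 202, 198 and 203 on day 6 and at 168, 181, 170 and 196 on day 8. Under rapamycin Cnp was at 142, 151, 171 and 177 CPM, below every control mouse. On day 13 mice A and B were at 118 and 101 CPM and mice C and D at 202 and 288. Day 13 mice A and B also had the larger libraries, 69971957 and 126435936 counts, against 38423852 and 41101425 in mice C and D. The part of depth in this split, also seen for Mog and Ugt8a, was not tested. Mag, which lies against the axon, was at 116, 181, 149 and 185 CPM in controls. It stayed within narrow ranges in the other groups, from 122 to 141 CPM on day 4, 128 to 144 on day 6, 132 to 151 on day 8, 134 to 170 on day 13 and 102 to 137 under rapamycin. The tight junction gene Cldn11 was at 66.3, 116, 94.9 and 119 CPM in controls, at 71.9, 64.2, 82.5 and 68.5 CPM on day 8 and at 92.3, 118, 100 and 148 CPM on day 13. Under rapamycin it was at 74, 69, 87.6 and 84.7 CPM. Every day 13 mouse was thus above every day 8 mouse and every rapamycin mouse for Cldn11.

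At the surface of the sheath, Mog was at 32.1, 51.4, 39.5 and 50.2 CPM in controls. It was at 24, 26.1, 32.8 and 32.1 CPM under rapamycin, with mice A and B below all controls and mice C and D at the level of the lowest. On day 13 mice A and B were at 16.5 and 16.4 CPM, the lowest values of all 24 mice, and mouse D at 58.0, the highest. Opalin was at 18.1, 28.9, 22.9 and 29.1 CPM in controls. On day 4 it was at 16.4, 13.1, 14.8 and 18.5 CPM and under rapamycin at 11.2, 13.4, 14.5 and 18.3, and in both groups mouse D alone was above control mouse A. The day 8 mice were at 15.3, 16.6, 15.2 and 20 CPM and the day 13 mice at 19.1, 8.23, 13.2 and 21.6. Ugt8a, the galactolipid enzyme, was at 64.7, 98.6, 81.0 and 95.7 CPM in controls and at 62.9, 54.7, 52.4 and 71.8 CPM on day 4. It was at 75.8, 82.3, 73.0 and 83.5 CPM on day 6, within the control range, and at 66.6, 60.3, 82.2 and 77.9 on day 8. On day 13 it was at 35.4, 31.8, 54.2 and 78.8 CPM, and under rapamycin at 49.0, 47.4, 46.7 and 68.8.

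By group mean, the control mice were the highest group for 7 of the 9 genes and day 13 for the other 2, Mobp and Cldn11. The lowest group was rapamycin for Mbp, Mog, Mag, Cnp and Opalin, day 8 for Mobp, Cldn11 and Mal, and day 13 for Ugt8a. The highest mean was 1.31 times the lowest for Mbp and 1.72 times for Opalin, the narrowest and the widest of the 9. Of 45 neighbouring pairs of groups in these orders, 1 did not overlap, Mal on day 6 above day 8. Neighbours were set by the order of the means, which itself favours overlap, so the count is a description only. The share of all genes whose groups do not overlap was not counted, here or for the separations of single genes given elsewhere. In a test of any difference among the 6 groups (edgeR, quasi-likelihood F test), 5 of the 9 members passed at an adjusted p under 0.05, where 41.9% of the 27110 genes tested passed. They were Cldn11 (adjusted p = 0.0038), Mobp (0.0047), Ugt8a (0.013), Opalin (0.029) and Mag (0.048), while Mog had an adjusted p of 0.44. Without day 13 mouse D, 8 of the 9 passed, and without control mouse B or control mouse D, 3 passed (Mobp, Cldn11 and Ugt8a in both).

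**Figure D2:**
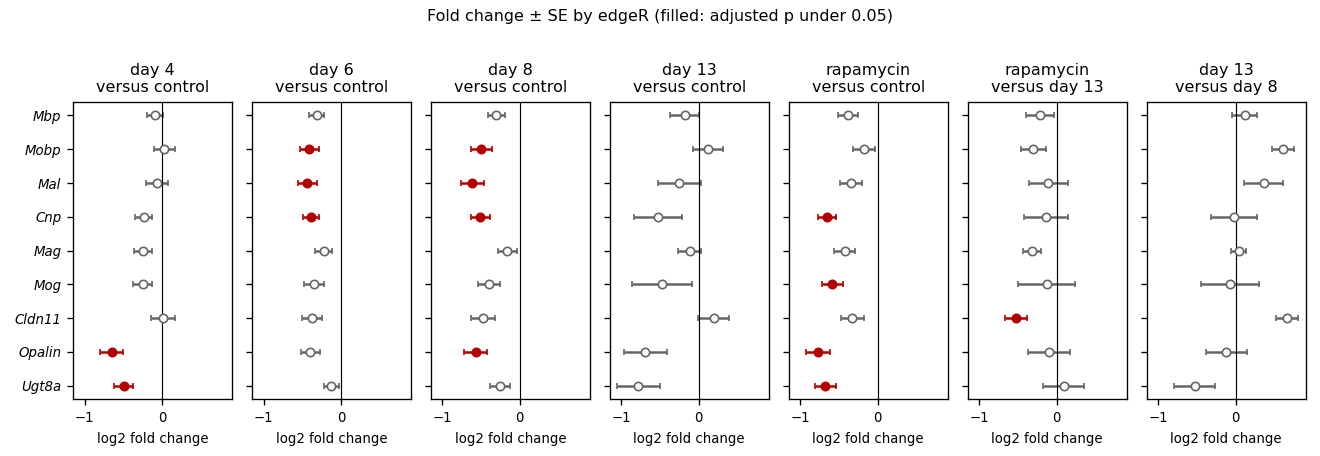
Log2 fold changes of the 9 genes in 7 comparisons, with standard errors as bars, from edgeR fits of 8 mice each. Filled red points passed at an adjusted p under 0.05. Every filled point lies left of 0, and the genes that are filled change between comparisons.

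On day 4, before seizures begin, Opalin and Ugt8a were lower than in controls, and the other 7 members did not pass the test. Opalin fell by 0.65 on the log2 scale (SE 0.14, adjusted p = 0.026, edgeR), from 24.7 ± 5.31 to 15.7 ± 2.32 CPM, and Ugt8a fell by 0.49 (SE 0.12, adjusted p = 0.045). These 2 of 9 members stand against 1.56% of the 25308 genes tested that were called lower and 2.61% called higher. The log2 fold changes of Mobp (0.032), Cldn11 (0.018), Mal (-0.067) and Mbp (-0.087) were all near 0, and the median of the 9 was -0.24, against -0.0047 over all genes. Both calls were lost without control mouse B, control mouse D or day 4 mice A, B or C, Ugt8a was lost without control mouse C, and 5 members passed without control mouse A (Mog, Mag and Cnp in addition). No member passed with all 24 mice in the fit or with the level of Xist, which differs between the sexes, as a covariate.

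On day 6 all 9 members had negative fold changes, and Cnp, Mal and Mobp passed the test. Mal fell by 0.43 (SE 0.13, adjusted p = 0.045, edgeR), Mobp by 0.41 (SE 0.12, adjusted p = 0.049) and Cnp by 0.39 (SE 0.11, adjusted p = 0.036). The 3 of 9 compare with 3.81% of 25057 genes called lower and 6.24% called higher. The median of the 9 was -0.37, against -0.018 over all genes, and Ugt8a had the smallest change, -0.12 (SE 0.10, adjusted p = 0.51). Astrocyte and microglia genes were lower in the same mice: 7 of 10 astrocyte genes and 5 of 10 microglia genes passed as lower, with summed levels of 5388 to 5755 CPM against 5876 to 6435 in controls and of 244 to 258 CPM against 272 to 324. Of 10 genes of the neighbouring thalamus, 4 passed as lower (summed level 133 to 146 CPM, against 152 to 344 in controls). None of these lists has a gene at 0 in all mice, and their part in the members' values was not tested. No member passed without control mouse B, control mouse D or any one of the 4 day 6 mice, only Cnp passed without control mouse C, and all 9 passed without control mouse A. DESeq2, the fit of all 24 mice and the Xist covariate left 0, while the fit without a filter gave 7 and the one with Ttr (transthyretin, of choroid plexus) as a covariate gave 6.

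On day 8, when seizures begin, Mal, Opalin, Cnp and Mobp were lower than in controls. Mal fell by 0.62 (SE 0.15, adjusted p = 0.020, edgeR), from 218 ± 51.5 to 143 ± 11.3 CPM (SD, n = 4), and Opalin by 0.57 (SE 0.15, adjusted p = 0.028). Cnp fell by 0.51 (SE 0.12, adjusted p = 0.020) and Mobp by 0.50 (SE 0.14, adjusted p = 0.037). These 4 of 9 compare with 4.87% of 25085 genes called lower and 8.41% called higher. All 9 fold changes were negative, with a median of -0.48 against -0.026 over all genes, and Mag had the smallest (-0.16, SE 0.12, adjusted p = 0.43). The control and day 8 mice share the series of animal numbers, and with that series as a block the same 4 genes passed. Genes of other cells passed as lower in the same mice, 2 of 10 of astrocytes (Gja1 and Slc1a3), 2 of 10 of microglia (P2ry12 and Cx3cr1) and 1 of 10 of the thalamus (Ntng1). Their summed levels were 5508 to 5982, 250 to 300 and 102 to 349 CPM, against 5876 to 6435, 272 to 324 and 152 to 344 in controls, no list had a gene at 0 in all mice, and their part in the members' values was not tested. DESeq2 called 7 of 9. Leaving out control mouse A also gave 7, control mouse B, control mouse D or day 8 mouse A gave 0, and control mouse C or day 8 mouse B gave 2 (Cnp and Mal).

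On day 13 the direction was mixed, with 7 negative and 2 positive fold changes among the members. No member passed (edgeR, 2 at an unadjusted p under 0.05), where 11.3% of 24920 genes were called lower and 15.6% higher. Ugt8a came closest, at a log2 fold change of -0.78 (SE 0.27, adjusted p = 0.060), followed by Opalin at -0.69 (SE 0.28, adjusted p = 0.097). Mobp (0.12, SE 0.19) and Cldn11 (0.19, SE 0.20) had positive values, and the median of the 9 was -0.25 against -0.040 over all genes. The coefficient of variation was larger on day 13 than in controls for 6 members, most for Mog (62.5% against 21.2%), and smaller for Mag (10.8% against 20.3%), Mobp (20.4% against 22.6%) and Cldn11 (21.6% against 24.6%). Leaving out day 13 mouse D gave 4 calls (Mog, Cnp, Opalin and Ugt8a, all lower), and DESeq2 called Ugt8a. The fit of all 24 mice called 3 (Cnp, Opalin and Ugt8a).

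Against day 8, no member passed on day 13 by edgeR, and neither did any of the 24747 genes tested (0% called higher, with 3479 genes at an unadjusted p under 0.05). Cldn11 (log2 fold change 0.66, SE 0.15) and Mobp (0.61, SE 0.14) both had an adjusted p of 0.30. All 4 day 13 mice were above all 4 day 8 mice for both genes, and the share of all genes that separate so was not counted. DESeq2 and the fit of all 24 mice called these 2 genes higher.

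In rapamycin-treated mice all 9 fold changes against control were negative, and Cnp, Ugt8a, Opalin and Mog passed. Opalin fell by 0.77 (SE 0.16, adjusted p = 0.018, edgeR), from 24.7 to 14.4 ± 2.97 CPM, and Ugt8a by 0.68 (SE 0.14, adjusted p = 0.017). Cnp fell by 0.66 (SE 0.12, adjusted p = 0.0095), with all 4 rapamycin mice below all 4 controls, and Mog by 0.59 (SE 0.14, adjusted p = 0.035). The 4 of 9 compare with 2.31% of 25006 genes called lower and 1.26% called higher, and the median of the 9 was -0.43 against 0.0058 over all genes. Mobp had the smallest change, -0.18 (SE 0.14, adjusted p = 0.57). Microglia genes were lower in the same mice, 8 of 10 passing, with a summed level of 204 to 230 CPM against 272 to 324 in controls. Of 10 astrocyte genes 3 were lower, Gfap (-0.77, adjusted p = 0.00038), Aqp4 (-0.72, adjusted p = 4.8e-05) and Sox9 (-0.38, adjusted p = 0.033), with a summed level of 5822 to 5996 CPM against 5876 to 6435. No gene of either list was at 0 in all mice, and their part in the members' values was not tested. Without control mouse A 8 members passed. Without control mouse B, control mouse D, rapamycin mouse A or rapamycin mouse B only Cnp passed, with all 24 mice in the fit 0 passed, and with the Xist covariate Cnp and Opalin passed.

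Untreated and rapamycin-treated mice of day 13 differed in 1 member, Cldn11. It was lower under rapamycin by a log2 value of -0.53 (SE 0.14, adjusted p = 0.020, edgeR), 78.8 ± 8.78 against 114 ± 24.7 CPM, without overlap. Over all 24274 genes 17.7% were called lower and 13.1% higher, so that 1 of 9 is not above the background. Mag stood just past the threshold (-0.32, SE 0.11, adjusted p = 0.051), and DESeq2, DESeq2 size factors, the fit of all 24 mice and the Xist covariate called it as well. Without rapamycin mouse A or B, or with the Ttr covariate, no member passed.

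The members parted from one another within libraries, where depth cancels in a ratio. Mobp over Ugt8a, a ratio of CPM, was 8.58 to 10.0 in the 4 controls. It was 12.7, 14.2, 18.1 and 9.96 on day 4, and it was 26.5, 20.3, 15.2 and 13.5 on day 13 and 12.5 to 14.7 under rapamycin. On day 6 it was 7.13 to 8.50 and on day 8 7.29 to 9.14. All 4 day 13 mice and all 4 rapamycin mice were thus above all 4 controls, and all 4 day 6 mice below. Cldn11 over Ugt8a followed the same order, from 1.02 to 1.25 in controls to 1.85 to 3.70 on day 13, and was the most variable of the 36 pairs (SD of the log2 ratio over 24 mice 0.53, against 0.12 among the controls). The least variable pair was Cnp over Mog, with an SD of 0.11 and a ratio of 5.76 to 5.96 in controls and 4.97 to 7.13 on day 13. These pairs were chosen by their values and are given without a test.

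**Figure D3:**
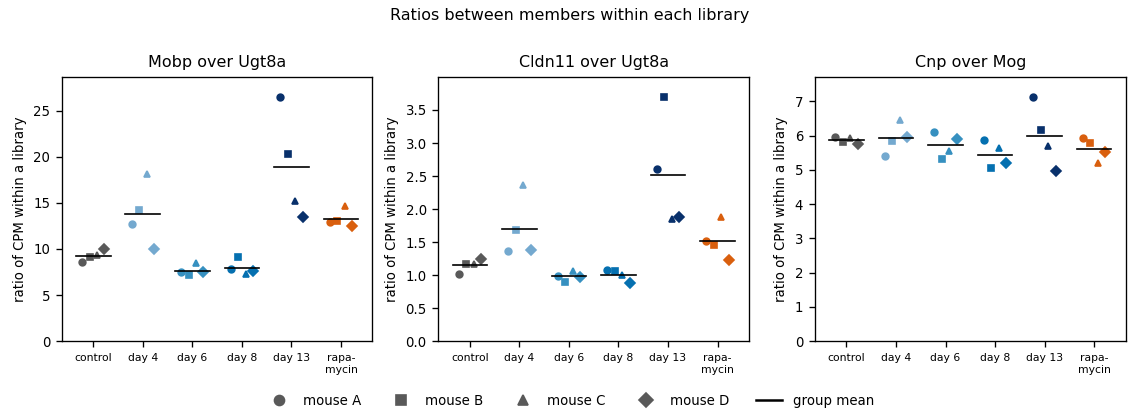
Ratio of CPM between pairs of members within each of the 24 libraries (linear axis from 0), by group, with mice A to D as symbols and the group mean as a line. Mobp over Ugt8a lies at 8.58 to 10.0 in controls, at 13.5 to 26.5 on day 13 and at 12.5 to 14.7 under rapamycin, while Cnp over Mog stays between 4.97 and 7.13 in all groups.

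Relative to the mean of the 9 genes in the same library, Mobp was 0.48 higher on day 13 than in controls on the log2 scale and Cldn11 0.56 higher. Ugt8a was 0.50 lower, Opalin 0.40 lower and Mog 0.30 lower, the last with values of -0.88 and -0.54 in mice A and B but 0.013 and 0.20 in mice C and D. Under rapamycin Mobp was 0.31 higher and Opalin 0.30 lower by the same measure. Mag was 0.26 higher on day 8, with all 4 mice between 0.24 and 0.30. On day 4 Opalin was 0.44 lower and Ugt8a 0.28 lower, and Mobp 0.26 higher and Cldn11 0.24 higher. On day 6, by contrast, Ugt8a was 0.20 higher and the next farthest from its control value was Mag, 0.11 higher.

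Across the 24 mice the correlation (Pearson, log2 CPM) between pairs of members ranged from 0.004 for Cldn11 with Ugt8a to 0.969 for Mog with Cnp, with a median of 0.626 over the 36 pairs. With the mean of each group removed it ranged from 0.347 to 0.979, with a median of 0.694. These points share libraries, controls and scaling and are a description only. Outside the 9, genes whose levels were among the most like the mean of the members over the 24 mice, of 18237 ranked, were Prr18 (r = 0.931), Tmem63a (0.924), Tspan2 (0.913), S1pr5 (0.905), Itgb4 (0.891), Prr5l (0.885) and Cd82 (0.857). With group means removed, leading genes were Pde8a (0.942), Rnf13 (0.932), Prr18 (0.931), Tspan2 (0.93), Ccp110 (0.917), Tmem63a (0.917) and Prr5l (0.908). Tspan2 and Cd82 are in the list of other myelin proteins and Prr5l in that of other mature oligodendrocyte genes.

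Other proteins of the sheath and its paranodes (22 genes) had lower calls in every comparison with control. Lower calls were 1 on day 4 (Gjb1), 4 on day 6 (Cntn2, Ermn, Cd9 and Anln), 2 on day 8 (with Gjc3) and 9 under rapamycin, with no higher call in these 4 comparisons. Over all genes, 1.56%, 3.81%, 4.87% and 2.31% were called lower in the same order. Gjb1, a gap junction gene of oligodendrocytes, fell by 0.58 on day 4 (adjusted p = 0.016) and by 0.93 under rapamycin (adjusted p = 0.0054). On day 13, 2 of the 22 were higher, the tetraspanin Cd9 (0.83, adjusted p = 0.033, edgeR) and the adhesion gene Nfasc (0.43, adjusted p = 0.022), both also expressed outside oligodendrocytes. Cntn2 was lower (-0.57, adjusted p = 0.046). Both counts of day 13 were below the shares of all genes called there, 15.6% higher and 11.3% lower. Cd9 was also among the lower calls of day 6, and the cells behind the higher and lower calls were not tested.

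In a list of 18 genes of mature oligodendrocytes, which shares Gjc3 with the list above, 3, 4, 2, 1 and 5 were lower on days 4, 6, 8 and 13 and under rapamycin, and none was higher. Over all genes, 1.56%, 3.81%, 4.87%, 11.3% and 2.31% were called lower in the same order, so that 1 of 18 on day 13 is below the background. Gjc3 is 1 of the 2 lower calls of day 8 in both lists. Car2, a carbonic anhydrase, fell by 0.44 on day 4 (adjusted p = 0.0083, edgeR), by 0.54 on day 13 (adjusted p = 0.0081) and by 0.55 under rapamycin (adjusted p = 0.017). Adamts4, a protease, fell by 0.90 under rapamycin (adjusted p = 0.0056). Against day 13, rapamycin-treated mice were lower in 4 of the 18, where 17.7% of all genes were called lower, among them Klk6 (0.42 ± 0.123 against 4.92 ± 5.99 CPM, log2 fold change -3.52, adjusted p = 0.0085) and Il33 (-1.45, adjusted p = 0.024), the first a protease and the second a cytokine that astrocytes also express. Of 12 genes of myelin lipid metabolism, to which Ugt8a belongs by function, none passed on day 4. On day 6, 2 were lower (Gltp and Aspa), where 3.81% of all genes were called lower. On day 8, 1 was lower (Gltp) and 1 higher (Sptlc2), where 4.87% of all genes were called lower and 8.41% higher. The sulfatide enzyme Gal3st1, which acts on the product of Ugt8a, fell by 0.75 under rapamycin (adjusted p = 0.0079), 1 of 3 lower calls there. Day 13 had 2 higher calls of 12, near the 15.6% of all genes called higher there: Sptlc2 (0.46, adjusted p = 0.0044), the subunit of the enzyme that begins sphingolipid synthesis, and Arsa (0.31, adjusted p = 0.019), which degrades sulfatide.

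Earlier stages of the lineage were read with 3 lists. Over all genes, 1.56%, 3.81%, 4.87%, 11.3% and 2.31% were called lower on days 4, 6, 8 and 13 and under rapamycin. The shares called higher were 2.61%, 6.24%, 8.41%, 15.6% and 1.26%. Of 12 transcription factors, Sox10, which activates myelin genes, was at 19.9 to 33.7 CPM in controls and 13.9 to 19.6 under rapamycin, a log2 fold change of -0.83 (SE 0.15, adjusted p = 0.0084, edgeR) without overlap. It was also lower under rapamycin than on day 13 (-0.52, adjusted p = 0.027). Lower calls in this list were 1, 0, 4, 1 and 2 on days 4, 6, 8 and 13 and under rapamycin, with Nkx2-2 (-0.98, adjusted p = 0.019), Sox8 (-0.49, adjusted p = 0.0058) and Zfp488 (-0.54, adjusted p = 0.031) among those of day 8. Of 12 genes of newly formed oligodendrocytes, Gpr17 fell by 0.42 on day 6 (adjusted p = 0.0058), 0.85 on day 8 (adjusted p = 0.0017) and 0.90 under rapamycin (adjusted p = 7.5e-05), and Enpp6 fell by 0.63 on day 8 (adjusted p = 0.048) and 1.31 under rapamycin (adjusted p = 0.0038). Lower calls were 2, 4, 4, 1 and 4 on days 4, 6, 8 and 13 and under rapamycin. Higher calls, 0, 2, 1, 2 and 0, were Pik3r3, Rras2 and Fyn, which neurons also express, and Fyn was also a lower call under rapamycin. The cells behind the higher and the lower calls were not tested, and the counts of day 13 were near the shares of all genes. Of 12 precursor cell genes only Pdgfra passed, by -0.18 on day 4 (adjusted p = 0.024) and -0.16 on day 6 (adjusted p = 0.022). The 12 summed to 739 to 774 CPM in controls. They summed to 682 to 736 CPM on day 4, 721 to 729 on day 6 and 694 to 737 on day 8. On day 13 the sum was 545 to 737 CPM and under rapamycin 683 to 709. Every Tsc1-Cre+ mouse was thus below every control mouse in this sum, and how often other sums separate so was not counted.

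**Figure D4:**
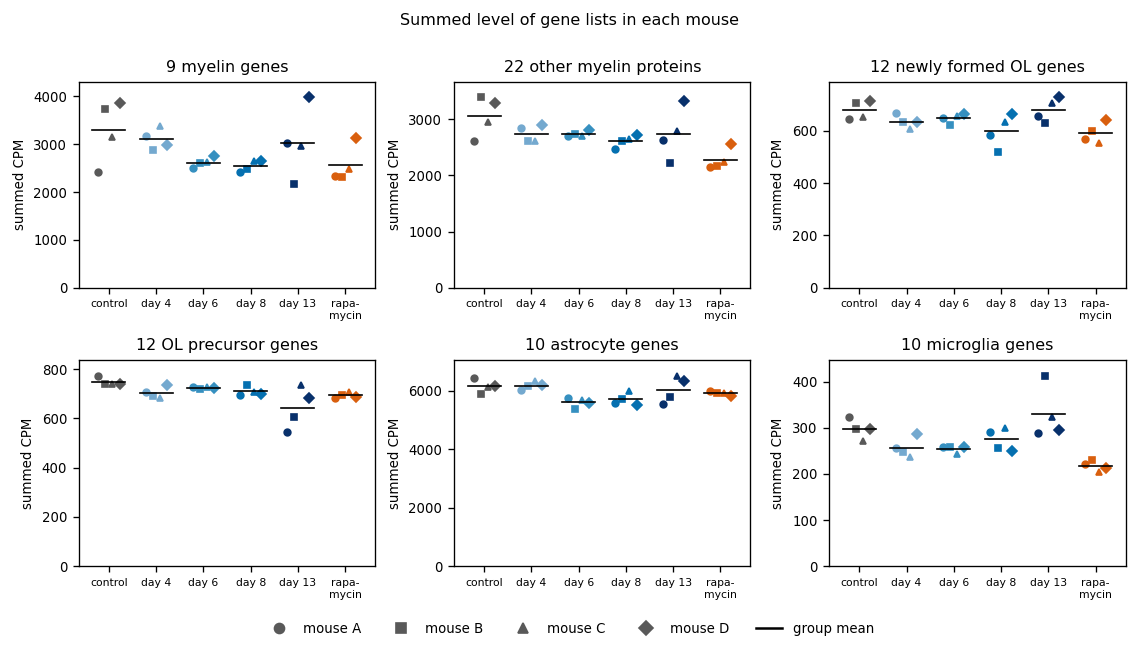
Summed CPM of 6 gene lists in each of the 24 mice (linear axis from 0), by group, with mice A to D as symbols and the group mean as a line; OL stands for oligodendrocyte. The 9 myelin genes lie at 2426 to 3858 CPM in controls and 2492 to 2744 on day 6, within the control range. The 12 precursor genes lie at 739 to 774 CPM in controls and 721 to 729 on day 6, below every control mouse.

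The lists of other cells give the setting of these values, and their part in the members' levels was not tested. On day 13, 11.3% of all genes were called lower and 15.6% higher, and under rapamycin 2.31% and 1.26%. Choroid plexus genes summed to 41.8 to 1782 CPM between single mice, with control mouse B the highest, and none of the 10 passed in any comparison with control. Genes of the thalamus summed to 75.3 to 145 CPM on day 13 against 152 to 344 in controls, with 3 of 10 lower. Of 10 endothelial genes, 3 were higher and 1 lower on day 13 and 3 lower under rapamycin, and of 10 microglia genes 2 were higher on day 13 (C1qa and C1qb). Genes of Schwann cells, which make peripheral myelin, summed to 21.8 to 50.9 CPM over all groups, with 4 of 8 counted highly enough to be tested and none of the 8 at 0 in all mice. Of 10 astrocyte genes, Gfap was higher on day 13 (1.91, adjusted p = 0.0047) and Gja1 lower (-0.93, adjusted p = 0.045). Excitatory neuron genes had at most 3 higher calls of 10 in any comparison with control, on day 6 (Calb1, Slc17a7 and Nrgn), and 1 lower call, Calb1 on day 13 (-1.19, adjusted p = 0.0056).

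Base composition was checked, by a measure added after the data were seen, because fold changes over all protein-coding genes rose or fell with the GC content of the exons in some comparisons: Spearman's rho was 0.345 on day 4 and -0.227 under rapamycin, and 0.065 to 0.115 in the other comparisons with control. Ugt8a has the lowest GC content of the 9, 40.86%, and Mag the highest, 55.68%. Set against the median of genes within 1 percentage point of the same GC content, Ugt8a was at -0.42 on day 4 and -0.75 under rapamycin, and the median of the 9 was -0.26 and -0.38 in these comparisons. On day 13 the median of the 9 moved to -0.34 by this measure.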

How the data were processed

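Total RNA of hippocampi was prepared with a stranded, ribosomal RNA-depleted kit. The authors trimmed reads with cutadapt 1.16.5 (quality 20, length at least 50 nucleotides), mapped them to GRCm38/mm10 with STAR 2.7.2b and made gene counts with featureCounts 1.6.4 and GENCODE M24. The deposited values are raw counts per gene. Identifiers were named with GENCODE M21, which held 55144 of the 55385.

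Each comparison was fitted on its 8 mice with edgeR 4.0.16 (TMM, filterByExpr, quasi-likelihood test, Benjamini-Hochberg over all genes tested) in R 4.3.3, without covariates, and a gene passed at an adjusted p under 0.05. CPM values use TMM-scaled library sizes. The 9 genes and all lists were chosen with earlier results of these data known. In each other list up to 3 passing genes per comparison with the largest absolute fold change and a mean of at least 1 CPM were named; further members of a list were named where its calls were 5 or fewer. Alternatives were DESeq2 1.42.0, its size factors, no filter, all 24 mice, Xist or Ttr as a covariate, blocks, a fold threshold and leaving out each mouse. Scripts were tested on simulated counts. Replicates are separate mice. Replicate letters did not pair the mice: same-letter deviations were not all correlated over 0.1. Counting error is small at these depths. Results of 1 gene in the lists are not reported here.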

Additional observations from a re-analysis of the deposited data

Results flagged for a closer look

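In 4 of the 54 groups of 4 mice (9 genes in 6 groups) the highest or the lowest mouse stood farther from the other 3 than Dixon's 95% critical value allows, where chance gives about 5%. Mbp was at 1551 CPM in rapamycin mouse D and at 1134 to 1143 CPM in the other rapamycin mice. Ugt8a was at 68.8 CPM in the same mouse and at 46.7 to 49.0 CPM in the others. On day 4, Cnp was at 193 CPM in mouse B against 221 to 224 CPM, and Mal was at 242 CPM in mouse C against 191 to 199 CPM.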

How the results depend on the processing

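The number of members that pass depends on the fit, and the cause of these shifts was not tested. On day 4, 2 passed in the reported fit, 0 with all 24 mice in one fit or with Xist as a covariate, and 1 with a fold threshold of 0.5. On day 6, 3 passed, 0 by DESeq2, with all 24 mice, with Xist as a covariate or with the fold threshold, 7 without a filter on low counts and 6 with Ttr as a covariate. On day 8, 4 passed and DESeq2 gave 7. On day 13, 0 passed, 1 by DESeq2, without the filter or with the Xist covariate, and 3 with all 24 mice. Rapamycin against control gave 4, 0 with all 24 mice and 2 with the Xist covariate. Rapamycin against day 13 gave 1, 2 by DESeq2, its size factors, all 24 mice or the Xist covariate, and 0 with the Ttr covariate. Day 13 against day 8 gave 0, and 2 by DESeq2 or with all 24 mice.

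Leaving out 1 mouse at a time gave 0 to 5 members on day 4, 0 to 9 on day 6, 0 to 7 on day 8, 0 to 4 on day 13, 1 to 8 for rapamycin against control, 0 to 2 for rapamycin against day 13, 0 for day 13 against day 8 and 3 to 8 for any difference. With the replicate letter as a block (replicate block), 6 passed on day 6, 1 on day 13 and 2 for rapamycin against day 13, and no other count of calls moved by over 1.5 times; same-letter mice of 2 groups correlated at -0.22 to 0.11, so the letters share only a name.

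Sign changes were among members that did not pass. Without single mice, the day 4 log2 fold change of Mobp ranged from -0.11 to 0.14, that of Cldn11 from -0.13 to 0.12 and that of Mal from -0.22 to 0.037, and the day 13 value of Mobp from -0.018 to 0.24. For rapamycin against day 13 the ranges were -0.35 to 0.35 for Mog, -0.32 to 0.10 for Opalin, -0.34 to 0.20 for Cnp, -0.32 to 0.14 for Mal and -0.084 to 0.40 for Ugt8a. For day 13 against day 8 they were -0.33 to 0.10 for Opalin, -0.049 to 0.26 for Mbp, -0.049 to 0.078 for Mag, -0.56 to 0.15 for Mog and -0.37 to 0.18 for Cnp. The Xist covariate turned Mbp (0.042) and Mal (0.11) on day 4, Ugt8a on day 6 (0.0043), Mog for rapamycin against day 13 (0.024) and Cnp for day 13 against day 8 (0.018). The Ttr covariate turned Opalin for rapamycin against day 13 (0.018) and Mag for day 13 against day 8 (-0.031), and the block turned Mog for rapamycin against day 13 (0.071). Over the members' single fold changes, 382 of 450 values under the other settings and 390 of 504 with 1 mouse left out kept both their direction and their side of the threshold.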
